A study of Mus musculus with 12 samples.

Results

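The lysosomal hydrolases and membrane proteins described here are 36 genes, taken by symbol from the 55487 genes of the count table: cathepsins and other proteases, enzymes that cleave sugar chains, lipids and nucleic acids, proteins of the lysosomal membrane, and 2 regulators. Each symbol had 1 row, and all 36 genes passed the filter on low counts that left 18407 genes for testing. The measurements are bulk poly-A RNA-seq counts from lungs of C57BL/6NCr mice, a substrain of C57BL/6, whose ages were 6, 12, 20 or 30 months (6M, 12M, 20M, 30M), each age having 3 libraries. A library is named by its age and replicate number, as in 6M_201. All 4 groups share the strain and tissue, and the labels name no treatment, genotype or sex. Nothing in the labels ties a replicate number to its own animal, so the p-values rest on library-to-library spread, which may be technical. Levels are given as CPM, counts per 1000000 after TMM scaling, which corrects for library composition. A gene is called when its Benjamini-Hochberg adjusted p, over all tested genes, is under 0.05 in the quasi-likelihood test of edgeR.

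Lysosomes are acidic organelles that break down proteins, glycans, lipids and nucleic acids arriving by endocytosis, phagocytosis and autophagy. Soluble hydrolases are mostly delivered there by mannose 6-phosphate receptors, heavily glycosylated membrane proteins line the organelle, and a proton pump keeps it acidic. In lung, macrophages use lysosomes to digest inhaled particles and spent surfactant, while alveolar type 2 cells store surfactant in lysosome-related lamellar bodies. The factor TFEB is known to bind E-box letters near the start of many lysosomal genes, and PU.1, a factor of macrophages and other blood cells, is known to bind purine-rich letters around GAGGAA.

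RefSeq windows on GRCm38.p6 of 300 bases, from 250 before the start site to 50 after it, were found for 31 of the 36 genes, with 37 windows in all. Ctsb, Ctsh, Asah1, Galns and Npc1 had no window in the table. The E-box letters CACGTG, which read alike on both strands, stood in a window of 9 of the 31 genes (29.03%), beside 8.093% of all genes in the table and 7.15% of all windows. The longer form TCACGTG on either strand, which contains the first, stood in 7 of the 31 (22.58%), beside 4.292% of all genes and 3.765% of windows. The 9 genes were Ctsa, Ctsd, Ctsf, Ctsl, Gaa, Glb1, Lamp1, Lgmn and Mcoln1. The Lgmn letters lie in 1 of its 2 windows, whose start was not matched to a GENCODE M21 transcript, while its matched window holds none; with matched windows alone the counts were 8 and 6 genes. These are matches of letters, not measured binding. The sequences below show the densest cases, on each gene's own strand 5′ to 3′, with the E-box and any flanking T or A of the longer form in capitals. Lamp1 had 4 E-boxes, of which the ones beginning 61 and 15 bases before the start site are given, and the Ctsd, Mcoln1 and Ctsa boxes begin 98, 45 and 12 bases before it.
Lamp1 (chr8:13159088-13159117): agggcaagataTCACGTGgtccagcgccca
Lamp1 (chr8:13159134-13159163): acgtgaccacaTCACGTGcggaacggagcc
Ctsd (chr7:142387908-142387937): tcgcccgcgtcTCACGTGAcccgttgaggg
Mcoln1 (chr8:3500462-3500491): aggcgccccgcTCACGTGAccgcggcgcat
Ctsa (chr2:164833749-164833778): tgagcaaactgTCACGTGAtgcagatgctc

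The letters GAGGAA, on either strand and so also read as TTCCTC, were searched only after the values below were seen. They stood in a window of 13 of the 31 genes (41.94%), beside 31.25% of all genes in the table. All 6 of the genes called at 30M against 6M held them, and 7 of the 25 other genes with a window did. No called gene held CACGTG. The windows of the 6 called genes are shown because they carry the largest age differences, with the searched letters in capitals; the Grn stretch holds them at 2 places.
Slc11a1 (chr1:74375039-74375068): gggtatccaggaGAGGAAcgaaggtcaaaa
Pld4 (chr12:112760652-112760681): gctcagaacaaaGAGGAAgtgaatggaagg
Ctss (chr3:95526774-95526803): atgaaagttcacTTCCTCattgtggatgct
Psap (chr10:60277418-60277447): ccctgggctggaTTCCTCacattgcaaagg
Grn (chr11:102430319-102430348): tgtggggagaaaGAGGAAagggagGAGGAA
Man2b1 (chr8:85083223-85083252): ggccctgcccccTTCCTCaccgattggcgg

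Library totals ran from 12152066 to 15058628 counts. In 3 libraries, 20M_221, 20M_222 and 30M_220, levels moved with the GC content of the transcripts. Each level was taken as its deviation from the mean of the libraries of the youngest age. Its Spearman correlation with GC content across genes was 0.357, 0.462 and 0.323 in these 3 libraries. The value was 0.226 in 12M_208 and between -0.0852 and 0.050 in the other 8 libraries. These 8 include the libraries of the youngest age, whose small values are partly built in because they form the reference. These correlations run across genes, which share libraries, and are descriptions only. Library 20M_222 also held 1039 CPM of the skeletal muscle actin Acta1, which was at most 2.13 CPM in any other library. Results that rest on these libraries are given with and without them.

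At 30M against 6M, 6 of the 36 genes rose and 0 fell. Slc11a1 rose 5.23-fold, Pld4 4.17-fold, Ctss 2.55-fold, Psap 1.79-fold, Grn 1.70-fold and Man2b1 1.65-fold. Among all tested genes, 1.93% were called higher and 0.0272% lower. DESeq2 called 10 of the 36 and limma voom 9, all of them higher, beside 4.09% and 3.23% of all tested genes in either direction. The median log2 difference over the 36 genes was 0.17, beside 0.00284 over all tested genes, and 25 of the 36 were above 0 (23 to 27 under the alternatives), beside 50.5% of all tested genes. In 14 genes every 30M library lay above every 6M library, beside 9.89% of all tested genes, and in 1 gene, Npc1, every 30M library lay below, beside 8.66%. Without 6M_201, 6M_202 or 6M_203 in turn, the count of called genes was 3, 3 and 2, and without the 3 libraries that follow GC content it was 5. Over all tested genes these 4 fits called 217, 121, 69 and 348 genes in that order, beside 361 in the main fit. In bulk RNA, more cells of a type and more RNA per cell cannot be told apart.

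**Figure D1:**
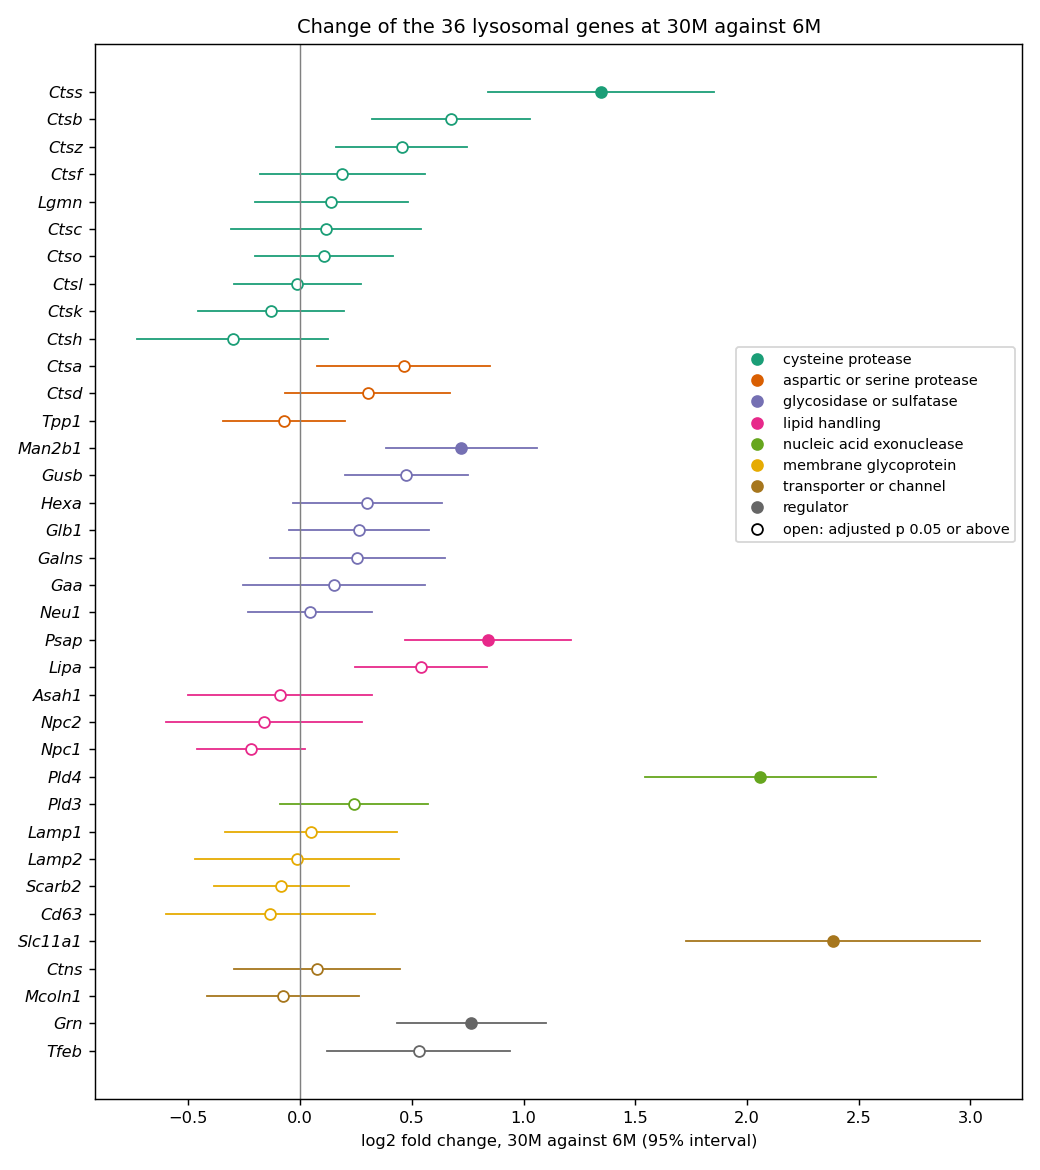
Log2 difference at 30M against 6M for the 36 genes (horizontal axis, with 95% intervals from the edgeR fit, 3 libraries per age), grouped and coloured by role. Filled points are called genes; the 4 membrane glycoproteins lie around 0, whereas Slc11a1 and Pld4 lie above 2.

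Slc11a1 (ENSMUSG00000026177, chr1:74375195-74386062), known as Nramp1, encodes a divalent metal transporter. In its functional form the protein pumps iron and manganese out of the phagosome of macrophages. Whether the mice of this substrain make a functional protein was not measured. The RNA level of Slc11a1 was 8.14, 8.42 and 3.96 CPM in the 6M libraries and 24.6, 35.6 and 47.2 CPM in the 30M libraries. The intermediate ages gave 12.3, 9.35 and 8.70 CPM at 12M and 13.5, 19.0 and 14.5 CPM at 20M. All 30M libraries lay above all others, and the highest was the GC-following 30M_220. The log2 difference at 30M against 6M was 2.39 (SE 0.30, adjusted p = 0.00241). With the GC trend of each library removed it was 2.29, and it was called in all 20 alternatives, with values between 2.11 and 2.59. The other transporters were level. Ctns, the cystine exporter, differed by 0.07 (95% interval -0.30 to 0.45), and the cation channel Mcoln1 by -0.08 (-0.42 to 0.27).

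Pld4 (chr12:112760655-112768990) is a lysosomal exonuclease that degrades single-stranded DNA and RNA and so limits their sensing by Toll-like receptors, and it is known from plasmacytoid dendritic cells and macrophages. The 6M libraries held 31.2, 19.4 and 15.8 CPM and the 30M libraries 82.7, 94.5 and 100.3 CPM. At 12M the values were 31.0, 20.0 and 24.6 CPM, and at 20M they were 40.8, 41.0 and 30.2 CPM. The 30M libraries stood apart from the other 9, while 6M and 12M overlapped. The log2 difference was 2.06 (SE 0.24, adjusted p = 0.00152), and it too was called in all 20 alternatives, between 1.87 and 2.39. Its paralog Pld3, with the same kind of activity, held 60.1 ± 2.94 CPM at 6M and 71.0 ± 11.2 CPM at 30M (SD, n = 3), a log2 difference of 0.24 (95% interval -0.09 to 0.57).

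Among the 10 cysteine proteases 1 rose, beside 1.93% of all tested genes called higher. The others did not pass the test, and the median log2 difference over the 10 was 0.13. The gene that rose was Ctss (chr3:95526786-95556403), the cathepsin of antigen-presenting cells that trims the invariant chain of MHC class II. Its level was 139, 148 and 111 CPM at 6M, 169, 142 and 130 CPM at 12M, 199, 133 and 118 CPM at 20M, and 433, 334 and 246 CPM at 30M. The 3 younger ages overlapped, and the lowest 30M library was the GC-following 30M_220. The log2 difference was 1.35 (SE 0.23, adjusted p = 0.0105). It was 1.40 with the GC trend removed, and among all alternatives the call was lost only without 6M_203 (1.23, adjusted p = 0.0887).

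Ctsb, a broadly expressed cathepsin with endopeptidase and exopeptidase activity, lay just outside the threshold. Its level was 428, 441 and 396 CPM at 6M and 772, 654 and 596 CPM at 30M, with no overlap. The log2 difference was 0.68 (SE 0.16, adjusted p = 0.0562). It passed with DESeq2 (adjusted p = 0.00185), with limma voom (0.00638), with the GC trend removed (0.0496), without 12M_208 (0.0242) and without 30M_220 (0.0493). Part of its exons, 12.8%, is shared with Fdft1 on the opposite strand, and whether counting used the strand is not given in the sources used here. The same uncertainty holds for Ctsl (26.8%, with Gm47123), Hexa (12.8%, with Tmem202), Ctsa (10.5%, with Pltp) and Lamp1 (9.31%, with Grtp1). Of the called genes Grn shares 1.96%, with Fam171a2. On the same strand, where strand-aware counting cannot separate genes, Ctsd shares 34.4% of its exons with Gm49369. Ctsl shares 6.09% there with Gm49230, and Glb1 5.49% with Tmppe. Gm49369 held 0 counts over all libraries, and whether reads in the shared exons were counted is not known here. Ctsz, a carboxypeptidase, held 126 ± 3.28 CPM at 6M and 172 ± 21.2 CPM at 30M (SD, n = 3), with a log2 difference of 0.45 (adjusted p = 0.137). It passed with DESeq2 and limma voom.

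The remaining cysteine proteases lay closer to 0. Ctsh, an aminopeptidase that takes part in surfactant protein processing in alveolar type 2 cells, was 296, 420 and 446 CPM at 6M and 381, 277 and 285 CPM at 30M, overlapping, with a log2 difference of -0.30 (adjusted p = 0.651). Ctsl, an endopeptidase found in most cells, differed by -0.01 (95% interval -0.30 to 0.27), and Ctsk, the collagen-degrading cathepsin of osteoclasts and fibroblasts, by -0.13 (-0.46 to 0.20). Ctsc, which activates serine proteases of granulocytes and lymphocytes, differed by 0.12 (-0.31 to 0.54). Ctsf, Ctso and Lgmn, the asparaginyl endopeptidase, had values of 0.19, 0.11 and 0.14. Of the aspartic and serine proteases 0 of 3 were called, beside 1.93% called higher and 0.0272% called lower among all tested genes. Ctsa, the protective protein of lysosomal sialidase and galactosidase, gave 251, 233 and 198 CPM at 6M and 286, 309 and 346 CPM at 30M, without overlap (log2 difference 0.46, adjusted p = 0.303). Ctsd, the main aspartic protease, differed by 0.30 (adjusted p = 0.562) and the tripeptidase Tpp1 by -0.07 (95% interval -0.35 to 0.20).

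**Figure D2:**
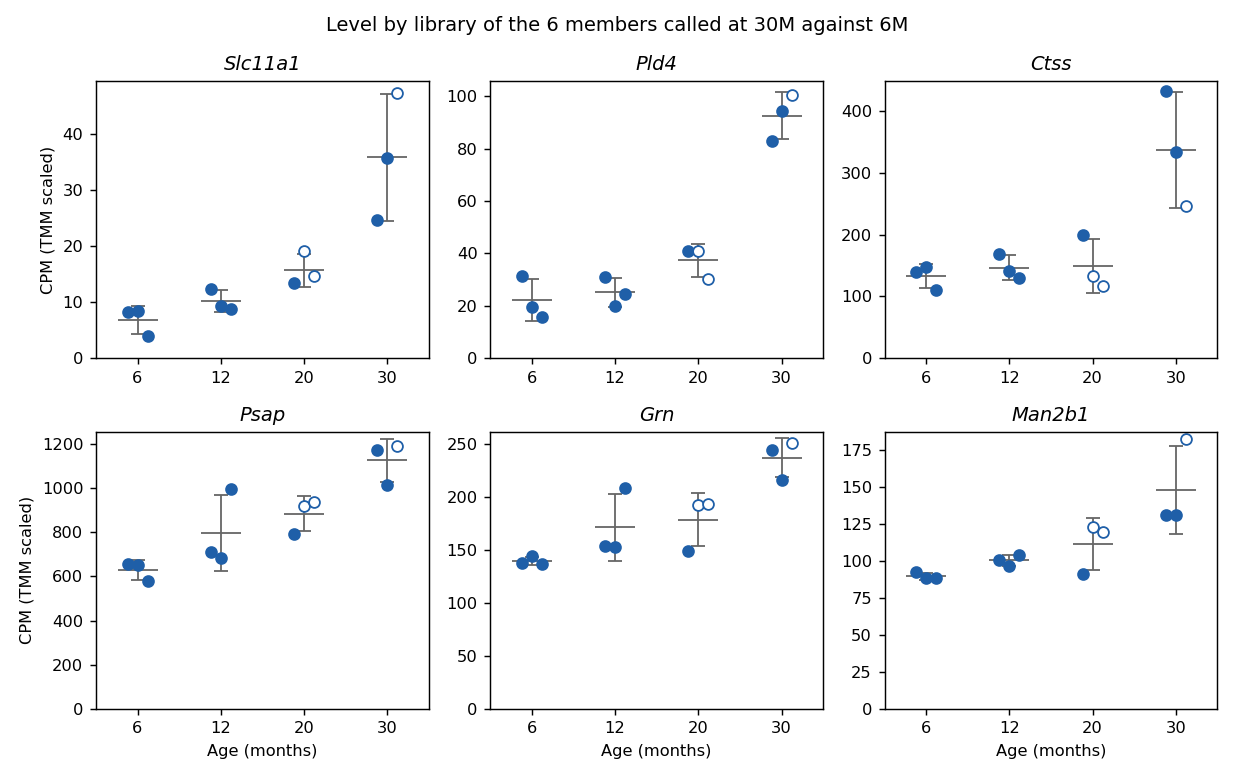
Level in CPM (vertical axes, from 0) of the 6 genes called at 30M against 6M, in each library by age in months; bars are mean ± SD of 3 libraries and open points are the 3 libraries that follow GC content. Slc11a1, Pld4 and Ctss differ most at 30M, and Psap, Grn and Man2b1 differ by less. In all 6 genes the 20M mean lies between the 6M and 30M means.

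All 7 glycosidases and sulfatases had positive log2 differences in the main test, beside 50.5% of all tested genes, with a median of 0.26. Neu1 was -0.0258 with the GC trend removed and Gaa -0.0198 without the 3 libraries that follow it. Of the 7 genes 1 was called, beside 1.93% of all tested genes called higher. This was Man2b1 (chr8:85083270-85098282), the alpha-mannosidase that trims N-glycans. Its level was 92.5, 88.4 and 88.6 CPM at 6M and 131, 131 and 183 CPM at 30M, with the highest value in 30M_220, and the 20M libraries gave 91.3, 123 and 120 CPM. The log2 difference was 0.72 (SE 0.16, adjusted p = 0.0322). Without 30M_220 it was 0.54 (adjusted p = 0.0834), and the call was also lost with only the 2 ages compared (0.73, adjusted p = 0.0560) and without any 1 of the 6M libraries (adjusted p = 0.0968 to 0.176). Gusb, the beta-glucuronidase, was 45.7, 45.1 and 37.9 CPM at 6M and 59.6, 55.2 and 64.1 CPM at 30M, without overlap (log2 difference 0.48, adjusted p = 0.0871). Hexa, the alpha subunit of hexosaminidase, Glb1, the beta-galactosidase, and Galns, a sulfatase of keratan sulfate, differed by 0.30, 0.26 and 0.26. The glycogen-degrading Gaa differed by 0.15 (95% interval -0.26 to 0.56) and the sialidase Neu1 by 0.05 (-0.23 to 0.32).

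Of the 5 genes of lipid handling 1 rose, beside 1.93% of all tested genes called higher. Psap (chr10:60277627-60302597) encodes prosaposin, whose products, the saposins, present sphingolipids to hydrolases. Its level was 657, 652 and 577 CPM at 6M, 711, 683 and 997 CPM at 12M, 792, 920 and 937 CPM at 20M, and 1174, 1015 and 1191 CPM at 30M. The 30M libraries lay above all others, though 12M_208 came near. The log2 difference at 30M against 6M was 0.84 (SE 0.17, adjusted p = 0.0242). Without the 3 libraries that follow GC content it was 0.80 (adjusted p = 0.0657), and the call was also lost without 30M_216 (adjusted p = 0.0644), 30M_220 (0.0529) or any 1 of the 6M libraries (0.0760 to 0.173).

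The other genes of lipid handling did not pass. Lipa, the acid lipase that hydrolyses cholesteryl esters and triglycerides, was 55.5, 60.1 and 54.1 CPM at 6M and 95.6, 74.5 and 76.7 CPM at 30M, without overlap (log2 difference 0.54, adjusted p = 0.0698). It passed with DESeq2, with limma voom and without 12M_208. The pair that moves cholesterol out of the lysosome had negative values: the membrane transporter Npc1 was 115, 115 and 120 CPM at 6M and 107, 91.4 and 102 CPM at 30M (log2 difference -0.22, adjusted p = 0.498), and the soluble carrier Npc2 differed by -0.16 (95% interval -0.60 to 0.28). The ceramidase Asah1 differed by -0.09 (-0.50 to 0.32).

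The 4 membrane glycoproteins, which make up much of the lysosomal membrane protein, had a median log2 difference of -0.05 and none was called. None of the 4 passed at an unadjusted p under 0.05, beside 11.6% of all tested genes. DESeq2 and limma voom called none of them, beside 4.09% and 3.23%. With only 4 genes, finding none lies near these shares. Lamp1 was 742, 863 and 857 CPM at 6M and 1008, 833 and 704 CPM at 30M, overlapping, with a difference of 0.05 (95% interval -0.34 to 0.43). Lamp2, which also serves chaperone-mediated autophagy, differed by -0.01 (-0.47 to 0.44), Scarb2, the receptor that carries glucocerebrosidase, by -0.08 (-0.39 to 0.22) and the tetraspanin Cd63 by -0.13 (-0.60 to 0.34). With 3 libraries per age, these intervals give the range of differences compatible with the data, in both directions. Without the 3 libraries that follow GC content, Lamp2 differed by 0.20 and Cd63 by 0.08.

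Both regulators had positive values and 1 was called, beside 50.5% positive and 1.93% called higher among all tested genes. Grn (chr11:102430315-102437048) encodes progranulin, which is processed to granulins in the lysosome. Its level was 137, 144 and 137 CPM at 6M, 153, 153 and 208.1 CPM at 12M, 149, 193 and 194 CPM at 20M, and 244, 216.3 and 251 CPM at 30M, with no overlap between 30M and any other age. The log2 difference was 0.77 (SE 0.15, adjusted p = 0.0235), and the call was lost without 30M_216 (adjusted p = 0.0642), 30M_220 (0.0540) or any 1 of the 6M libraries (0.0924 to 0.151). Tfeb, the transcription factor of lysosomal genes, was 20.2, 21.2 and 20.2 CPM at 6M and 21.9, 31.4 and 35.7 CPM at 30M. The lowest 30M library lay just above the 6M libraries, and the log2 difference of 0.53 was not called (adjusted p = 0.243). The 9 genes with an E-box had a median log2 difference of 0.15, from -0.08 to 0.46, and the 22 others with a window had a median of 0.27.

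**Figure D3:**
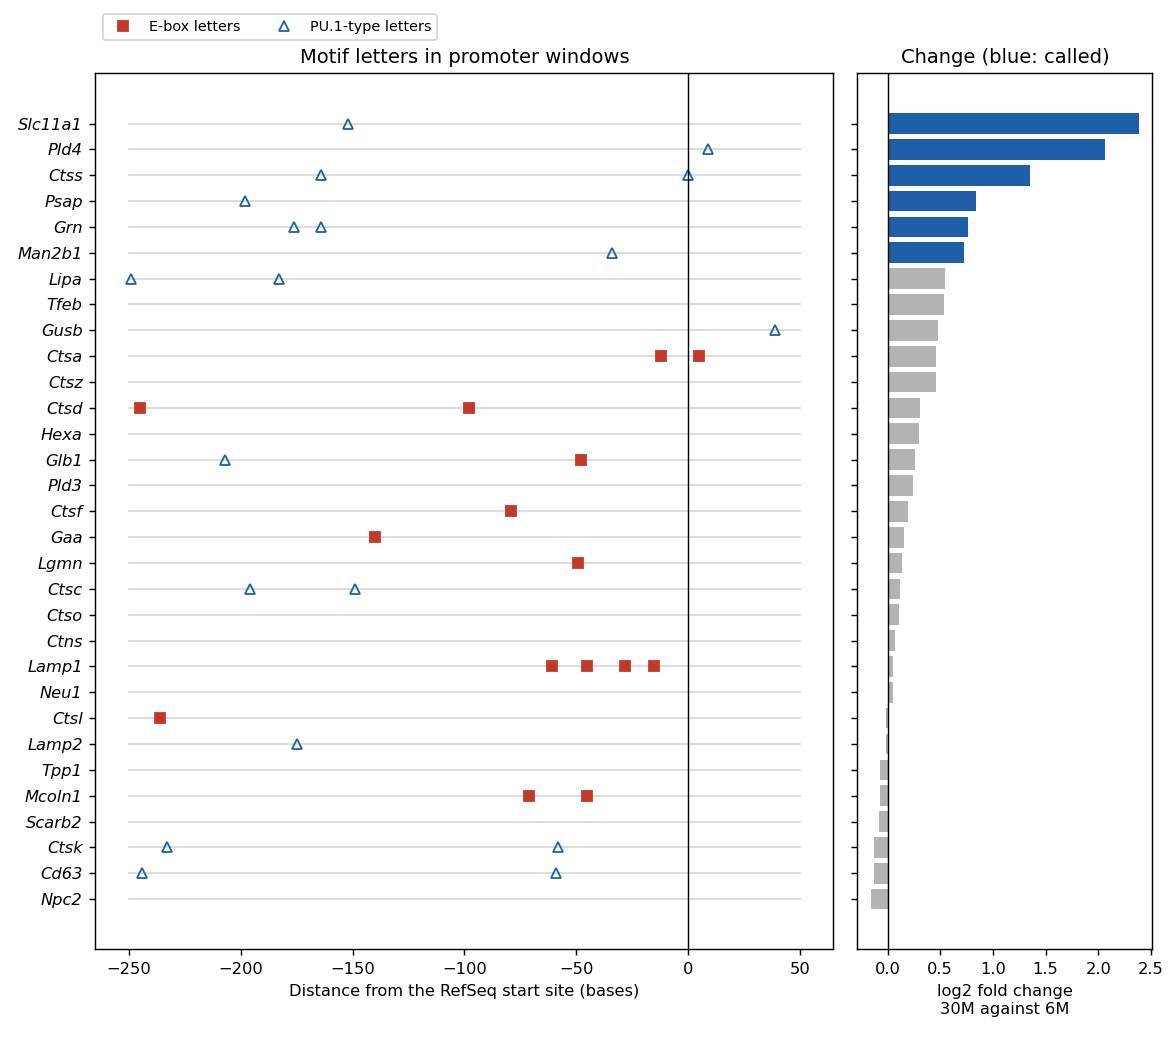
Positions of the E-box letters (squares) and the GAGGAA-type letters (triangles) in the promoter windows of 31 genes, by distance from the RefSeq start site in bases, and beside them each gene's log2 difference at 30M against 6M (bars, blue where called). Genes run from the highest to the lowest difference, and the 6 at the top have triangles and no squares. The GAGGAA letters were chosen after these values were seen, and 22 of the 31 genes have no squares.

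At 12M against 6M and at 20M against 12M, edgeR called 0 of the 36 genes, and the share of all tested genes called was 0% in each. At an unadjusted p under 0.05 the numbers were 0 and 3, beside 3.6% and 11.2% of all tested genes. DESeq2 and limma voom called 0 of the 36 in both, where DESeq2 called 0.0489% of all genes each time and limma voom 0%. At 20M against 6M edgeR called 0, with 6 at an unadjusted p under 0.05 (Slc11a1, Pld4, Psap, Tfeb, Ctsa and Grn) beside 7.8% of all tested genes, while 0.0163% of all genes were called higher and 0% lower. DESeq2 called 1 of the 36 there, higher, beside 0.304% of all genes. Under limma voom 6 were called, 5 higher and 1 lower, beside 4.22%. The largest difference, that of Slc11a1, was 1.196 on the log2 scale (unadjusted p = 0.00151, adjusted p = 0.553).

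At 30M against 20M 1 gene rose, Pld4, with a log2 difference of 1.31 (adjusted p = 0.0410), and 0.212% of all genes were called in either direction. DESeq2 called 5 of the 36 and limma voom 3, beside 1.73% and 1.15% of all genes. The edgeR call was lost without the 3 libraries that follow GC content and with only the 2 ages compared. In both settings 0 of the 36 and 0 of all tested genes were called. The call was also lost without 6M_202, 12M_206, 12M_207, 12M_208, 20M_221, 20M_222, 30M_216 or 30M_218, where the count was 0 each time. Over all tested genes these fits called 9, 17, 21, 29, 0, 3, 0 and 0 in that order, beside 39 in the main fit. The values for Slc11a1 and Ctss were 1.19 and 1.17 (adjusted p = 0.134 and 0.0758). In 30 of the 36 genes the difference was positive, beside 47.8% of all tested genes, and in 11 the 30M libraries lay above all 20M libraries, beside 5.69%. The comparisons with 6M share the 6M libraries, and those with 20M share the 20M libraries.

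A joint test over the 4 ages called Pld4 (adjusted p = 0.00241), Slc11a1 (0.00625) and Ctss (0.0199), 3 of the 36, beside 1.11% of all genes. DESeq2 called 8 of the 36 jointly and limma voom 12, beside 4.28% and 9.01%. A straight line over age in months called 7 genes higher and 0 lower, beside 2.5% and 0.179% of all genes. The slopes were 0.0985 log2 units per month for Slc11a1, 0.0873 for Pld4, 0.0543 for Ctss, 0.0329 for Psap, 0.0294 for Man2b1 and Grn, and 0.0201 for Gusb (adjusted p = 0.0325). Gusb did not pass the other edgeR comparisons. The joint count was 5 without 12M_208, and the slope count of 7 was 3 without 30M_220 and 4 without 6M_203. Over all tested genes the joint count of 205 was 169 without 12M_208. The slope count of 494 was 254 without 30M_220 and 234 without 6M_203. The mean level was highest at 30M in 19 genes, at 12M in 9, at 6M in 5 and at 20M in 3.

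**Figure D4:**
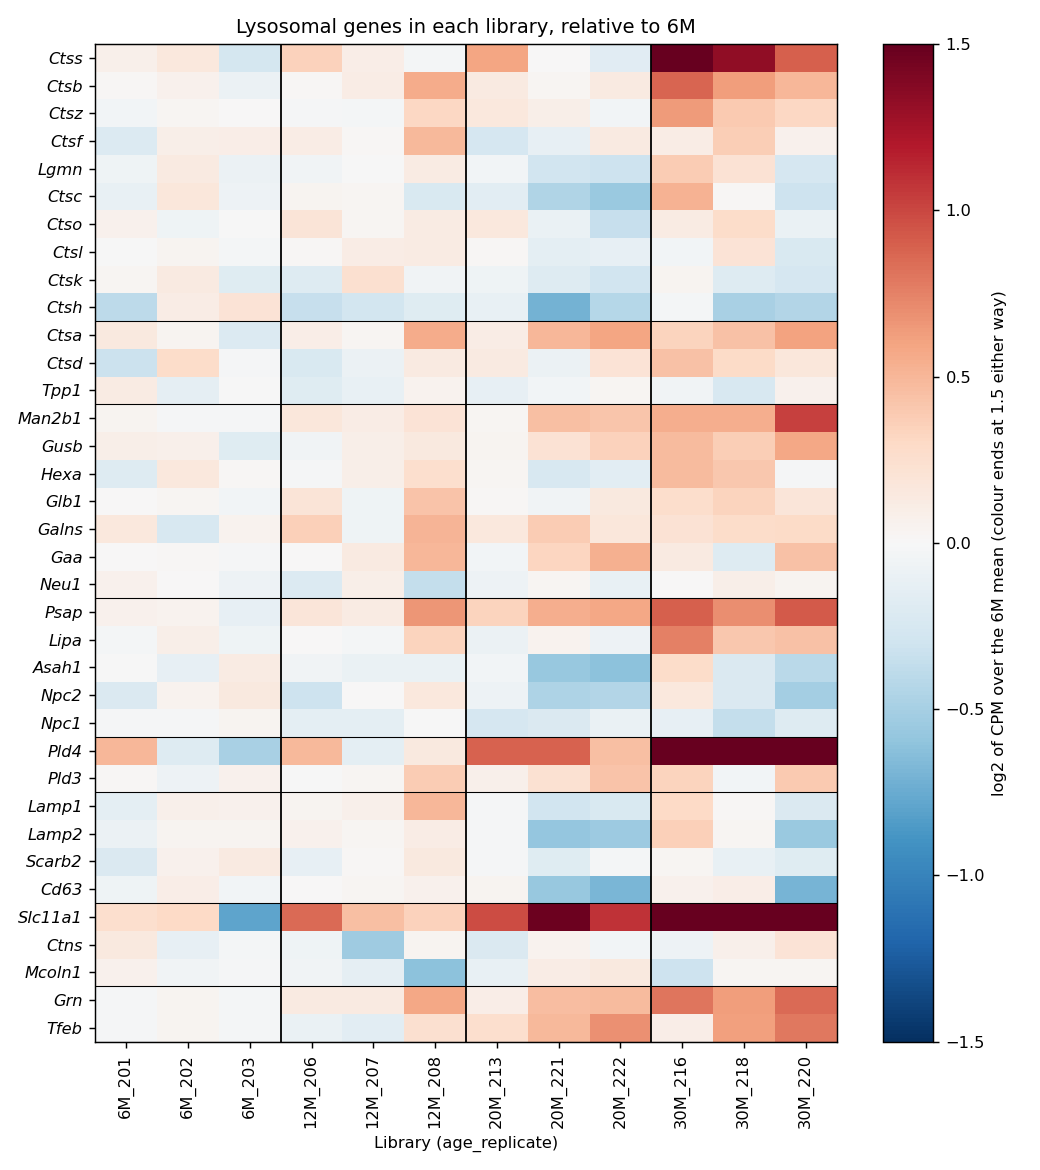
Log2 of the CPM over the 6M mean for each gene (rows, grouped by role) in each of the 12 libraries (columns, by age and replicate), red above and blue below. Slc11a1, Pld4 and Ctss are red in all 30M libraries, and Lamp2, Cd63 and Asah1 are blue in 20M_221, 20M_222 and 30M_220.

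The genes did not behave alike in the libraries that follow GC content. Comparing 20M_221 and 20M_222 with 20M_213, and 30M_220 with 30M_216 and 30M_218, 15 genes were lower in the GC-following libraries each time, 13 were higher each time and 8 were mixed. Among all tested genes the shares were 25.2%, 24.8% and 49.98%. The 15 low genes, among them Ctss, Ctsb, Lamp1, Lamp2, Cd63, Asah1 and Npc2, had a median transcript GC content of 49.0%, and the 13 high genes, among them Psap, Grn, Man2b1, Slc11a1, Tfeb and Ctsa, one of 55.5%. Pld4 was mixed. Lamp2 is an example of the low pattern: 369, 249 and 254 CPM in 20M_213, 20M_221 and 20M_222, and 474, 378 and 252 CPM in 30M_216, 30M_218 and 30M_220. Removing the GC trend of each library left the called genes at log2 differences of 2.29 for Slc11a1, 1.98 for Pld4, 1.40 for Ctss, 0.77 for Psap, 0.69 for Grn and 0.69 for Man2b1.

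Per length of merged exons, in RPKM (CPM divided by exon length in kilobases), Lamp1 and Psap were the most abundant over all libraries, at 313 each, followed by Npc2 at 178, Ctss at 141 and Ctsd at 125. Lamp1 was 307 ± 25.5 RPKM at 6M and 317 ± 57.0 RPKM at 30M, while Psap was 229 ± 16.3 and 411 ± 35.3 RPKM (SD, n = 3), and the libraries of the pair overlapped at 30M. Ctss was 97.6 ± 14.4 RPKM at 6M, below Ctsd at 117 ± 24.3, and 249 ± 68.9 RPKM at 30M, above Ctsd at 144 ± 13.8. Ctss and Ctsd overlapped at 6M and did not at 30M. The Ctsd level may depend on whether reads in the exons shared with Gm49369 were counted. The 3 lowest were Slc11a1 at 4.62, Ctsf at 4.42 and Tfeb at 4.39 RPKM, so the gene with the largest fold difference was among the least abundant. Summed over the 36 genes, the level was 6950 ± 369 CPM at 6M, 7389 ± 823 at 12M, 6775 ± 357 at 20M and 8270 ± 960 at 30M (SD, n = 3).

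Other genes of the lysosome were taken from lists of 34 soluble hydrolases, 25 membrane proteins, 18 proton pump subunits and 23 sorting factors and regulators, and their counts at 30M against 6M stand beside the 1.93% of all tested genes called higher and the 11.6% at an unadjusted p under 0.05. Of the 34 other hydrolases 3 rose and 0 fell, with a median log2 difference of 0.27: Gm2a, the activator of ganglioside breakdown (0.93), Plbd1, a phospholipase B-like protein (1.31), and Acp5, the tartrate-resistant acid phosphatase of macrophages and osteoclasts (1.05). Gm2a went from 91.5 ± 8.90 CPM at 6M to 174 ± 22.5 CPM at 30M. Of the 25 other membrane proteins 2 rose and 0 fell, with a median of 0.14: the macrophage sialomucin Cd68, from 14.0 ± 3.76 to 41.8 ± 7.79 CPM, and Laptm5, a protein of blood cells, from 110 ± 21.4 to 217 ± 5.15 CPM. The calls of Gm2a, Plbd1 and Laptm5 were lost without 6M_203, and that of Acp5 without 6M_201, 6M_203 or 30M_218. In 15 of the 34 hydrolases and 7 of the 25 membrane proteins every 30M library lay above every 6M library, beside 9.89% of all tested genes. None of the proton pump subunits was called, with 0 at an unadjusted p under 0.05 and a median of 0.03. None of the sorting factors and regulators was called, with 1 at an unadjusted p under 0.05 (Tfe3, a relative of Tfeb, 0.36, adjusted p = 0.290) and a median of 0.09.

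Levels of cell type markers are given beside these results. Among all tested genes at 30M against 6M, 1.93% were called higher and 0.0272% lower. An unadjusted p under 0.05 was found in 11.6% of them, and the marker counts stand beside these shares. Of 10 markers of macrophages in general, 6 rose at 30M against 6M and none was at 0 counts in any library. Their summed level was 373 to 397 CPM at 6M, 416 to 458 at 12M, 422 to 448 at 20M and 725 to 829 at 30M. The complement genes C1qc, C1qb and C1qa and the macrophage receptor Adgre1 had log2 differences of 2.05, 1.90, 1.65 and 1.96, which lie beside the 2.39 of Slc11a1 and 2.06 of Pld4. Mrc1, Mertk and Cd14 were at 0.19, -0.14 and -0.09. Of 10 alveolar macrophage markers 0 were called, 5 had an unadjusted p under 0.05, and their sum was 542 to 757 CPM at 6M and 534 to 779 CPM at 30M. The list was split, with 5 positive and 5 negative log2 differences, among them Marco at 1.48 and Krt79 at -0.95. In 5 every 30M library lay above every 6M library, beside 9.89% of all tested genes, and in 1 every one lay below, beside 8.66%. Of 6 markers of plasmacytoid dendritic cells 0 were called and 3 had an unadjusted p under 0.05. Their sum was 121 to 165 CPM at 6M and 194 to 328 CPM at 30M, and Siglech was 1.5 ± 0.99 and 4.80 ± 2.16 CPM. The part of these cells in the values of Slc11a1, Pld4, Ctss and the other called genes was not tested.

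Alveolar type 2 markers, which define the lung tissue and carry its surfactant genes, were abundant in all libraries. In edgeR 10 of 10 had a negative log2 difference at 30M against 6M, beside 9116 of the 18407 tested genes. Of the 10, 0 were called and 3 had an unadjusted p under 0.05, beside 11.6% of all tested genes. The sum was 33348 to 38784 CPM at 6M and 20338 to 34852 CPM at 30M, and it was 21687, 23453 and 20338 CPM in the 3 libraries that follow GC content. The same libraries were low in Npc2, Lamp2 and Cd63, with Npc2 at 763, 780 and 742 CPM. Lamp3, a lysosomal membrane protein of lamellar bodies that is on both lists, went from 768 ± 80.2 to 460 ± 146 CPM (log2 difference -0.74, adjusted p = 0.206). Alveolar type 1 markers, of the flat cells of gas exchange, were all below 0 too, with 6 of 6 log2 differences negative. Of the 6, 0 were called and 3 had an unadjusted p under 0.05, beside the same 11.6%. In 4 every 30M library lay below every 6M library, beside 8.66% of all tested genes. Their sum was 5661 to 6869 CPM at 6M and 3831 to 5515 CPM at 30M, with 4221, 4286 and 3831 CPM in the 3 libraries that follow GC content. The part of alveolar type 1 and type 2 cells in these values was not tested.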

How the data were processed

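Total RNA was extracted with ISOGEN II and poly-A selected before paired-end Illumina sequencing, per the labels' protocols. The authors deposited raw whole-number counts of reads for each gene. Per the submitters' processing notes, FastQC 0.11.7, Trimmomatic 0.38, HISAT2 2.1.0 and featureCounts were used with GRCm38 (mm10). For the annotation release and the strand setting, the sources used here give nothing. Of the 55487 gene identifiers, 55227 are in GENCODE M21, which supplied exon lengths and GC content, and 99.42% of those share its start and end.

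Groups and replicate numbers come from the titles. Between libraries of 1 age chi-square per gene was at least 7.145, so none was a duplicate of another of its age. Libraries of different ages were not compared in this way. Counts were tested across all genes with edgeR 4.0.16 in R 4.3.3 (quasi-likelihood, robust, TMM, filterByExpr by age, 12 libraries in 1 fit, Benjamini-Hochberg adjustment). The common biological coefficient of variation was 0.236. SEs come from the F statistic. The script was tested on simulated data. Alternatives were DESeq2 1.42.0, limma voom 3.58.1 with quality weights, DESeq2 size factors, other filters, only the 2 ages compared, a GC correction, and leaving out libraries.

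The 36 members, the gene lists and the tests were chosen with earlier results of these data known. All 36 members may be named, and from each other list up to 4 genes with the smallest p at 30M against 6M. Mrc1, Mertk and Cd14 are macrophage markers named beyond that rule because they were not called, chosen after their values were seen. Motifs were described without a test.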

Additional observations from a re-analysis of the deposited data

How the results depend on the processing

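Of the 36 genes, 24 kept the sign of their difference at 30M against 6M under all 20 alternatives, and Pld4 and Slc11a1 were the 2 called in every one. Counts of called genes moved as follows. At 30M against 6M the 6 became 10 with DESeq2 and ranged from 2 to 8 when 1 library was left out. Over all tested genes the count of 361 there became 753 with DESeq2 and ranged from 69 to 415 when 1 library was left out. At 20M against 6M the 0 became 1 with DESeq2 and 6 with limma voom, of which 5 were higher and 1 lower. At 30M against 20M the 1 became 5 with DESeq2, 3 with limma voom, 2 with the GC trend removed, 2 with no filter on low counts, and 0 with only the 2 ages compared or without the 3 libraries that follow GC content, and was 0 to 1 with 1 library left out. The joint count of 3 became 8 with DESeq2 and 12 with limma voom, and was 2 to 5 with 1 library left out, while the slope count of 7 was 3 to 8. Over all tested genes the joint count of 205 became 788 with DESeq2 and 1659 with limma voom. The count of 39 over all tested genes at 30M against 20M became 0 with only the 2 ages compared. It was also 0 without the 3 libraries that follow GC content. The cause of these shifts was not tested.

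The 12 genes whose sign turned had main log2 differences between -0.13 (Cd63) and 0.15 (Gaa); the muscle gene Ckm, which is not one of the 36, had 0.60 (adjusted p = 0.934). Ctsl was 0.0127 with limma voom, 0.0363 with the GC trend removed and 0.0865 without the 3 GC-following libraries, and Lamp2 was 0.0644, 0.0846 and 0.20 in that order. With the GC trend removed Neu1 was -0.0258 and Asah1 0.0033. Without the 3 libraries Gaa was -0.0198, Asah1 0.0491, Cd63 0.0834, Ctns -0.00038 and Ckm -0.13. With 1 library left out, the range was -0.14 to 0.29 for Ctsc, -0.13 to 0.0861 for Ctsl, -0.0018 to 0.30 for Lgmn, -0.14 to 0.0068 for Tpp1, -0.0209 to 0.30 for Gaa, -0.31 to 0.0480 for Asah1, -0.10 to 0.17 for Lamp1, -0.24 to 0.20 for Lamp2, -0.27 to 0.0829 for Cd63, -0.13 to 0.0235 for Mcoln1, -0.00099 to 0.15 for Ctns, -0.28 to 0.10 for the endothelial gene Kdr and -0.13 to 1.04 for Ckm. With 3 libraries per age, and no replicate number shared between ages, no paired analysis was possible because no library has a partner at another age. Where 1 of 3 libraries was left out, fewer samples entered the test.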

Other observations

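Inhibitors of cathepsins were a list of 11 cystatins and serpins, of which 7 were tested. At 30M against 6M 1 of the 7 rose, beside 1.93% of all tested genes called higher. This was Cst7, which encodes cystatin F, an inhibitor of cathepsins in immune cells: its level was 1.04, 0.66 and 1.54 CPM at 6M and 3.63, 5.0 and 3.23 CPM at 30M (log2 difference 1.86, adjusted p = 0.0471). This call was lost in 9 of the 20 alternatives: without the 3 libraries that follow GC content and without 6M_201, 6M_202, 6M_203, 12M_206, 20M_221, 30M_216, 30M_218 or 30M_220, with adjusted p up to 0.206. Cst3, which encodes the secreted cystatin C, was 505 ± 39.4 CPM at 6M and 678 ± 143 CPM at 30M (SD, n = 3), with a log2 difference of 0.42 (adjusted p = 0.421). Serpina3g differed by 1.04 (adjusted p = 0.143).

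For the 36 genes, the median coefficient of variation of the CPM over 3 libraries was 8.37% at 6M, 14.9% at 12M, 10.5% at 20M and 13.2% at 30M. At 12M, library 12M_208 was above the 6M mean in 28 of the 36 genes, beside 19 and 22 genes in 12M_206 and 12M_207, and its summed level of 8328 CPM exceeded 6787 and 7053 CPM in them. Neutrophil markers, 7 genes of which 0 were called at 30M against 6M, varied within ages, with sums of 162 to 1058 CPM at 6M and 308 to 1327 CPM at 30M.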
